A study of Mus musculus with 24 samples.

Results

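The livers of female mice housed at 30 °C were compared 2 weeks after ablation of a subtype of hypothalamic neurons. The comparison used 7 of the 24 RNA-seq libraries of the study, 3 from ablated and 4 from control females, chosen by the labelled sex, temperature and treatment. Ablated females 1 and 2 were Cre-carrying, Halo+/- mice of the Ai39 x BAC-AT1A-Cre line. Ablated female 3 was a Cre-carrying, R+/- mouse of the Ai9 x BAC-AT1A-Cre line and was the single Ai9 mouse among the 7. Control females 1 and 2 were Cre-negative, Halo+/- mice of the Ai39 line, control female 3 was a Cre-negative mouse of the BAC-AT1A-Cre line, and control female 4 was a Cre-carrying, Halo+/- mouse of the Ai39 line. All 7 had free access to 2029x Teklad diet and water. The sources used here give neither their age nor what was injected into the controls. Many results are given with and without ablated female 3, because line and treatment cannot be told apart for that mouse. All 3 ablated mice but only 1 of 4 controls carried Cre, so Cre largely coincided with treatment.

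The study targeted agouti-related peptide (AgRP) neurons that carry the angiotensin receptor AT1R, encoded by Agtr1a, in the arcuate nucleus of adult mice. A viral vector carrying a caspase-3 that is switched on by Cre was injected there, so that cells with Cre driven by AT1R sequences would die. The other 17 libraries came from males at 30 °C and from both sexes at 22 °C. Every female at 22 °C was labelled as Ai39. Each ablated male at 30 °C had a different label, with Ai39, Ai9 or neither in its line name. The control males at 30 °C were an Ai39 mouse and a mouse with neither. The comparisons below between temperatures and between sexes therefore also mix lines, and they were not tested within a single line. The line name gives Cre as a bacterial artificial chromosome (BAC) transgene, while the design text places it at the AT1R locus, and cell death is limited to Cre-carrying cells reached by the vector.

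AgRP neurons promote feeding and lower energy use, and they reach the liver through autonomic nerves, pituitary hormones and food intake. The liver answers fasting with gluconeogenesis, feeding with fat synthesis, and inflammatory signals such as interleukin-6 with acute phase proteins secreted into the blood. At 30 °C, close to its thermoneutral zone, a mouse needs little extra heat. Many mouse liver genes also differ by sex, which is set by the rhythm of growth hormone release and read out through the transcription factor STAT5.

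The deposited read counts in genes ranged from 22999964 to 34851094 per library, and 15385 to 16682 genes had at least 10 reads. Xist, the RNA of the inactive X chromosome, was present at 897 to 1269 CPM (CPM is the normalised count of a gene relative to its library's TMM-scaled total) in all 7. A pair of libraries stood apart on the principal components of all tested genes, which carried 33.4% and 22.0% of the variance. Ablated female 3 lay at -39.8 and 37.9 and control female 1 at 56.7 and 25.4, while the other 5 lay between -15.7 and 3.32 on the first. Mitochondrially encoded RNA was 14.5%, 13.9% and 7.53% of reads in ablated females 1, 2 and 3, against 22.1%, 14.4%, 11.97% and 12.95% in control females 1 to 4. Ablated female 3 thus had the lowest share and control female 1 the highest. Genes with 0 reads in 1 library and at least 10 in each of the other 6 numbered 2, 18 and 54 in ablated females 1, 2 and 3, against 166, 41, 35 and 11 in control females 1 to 4.

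**Figure D1:**
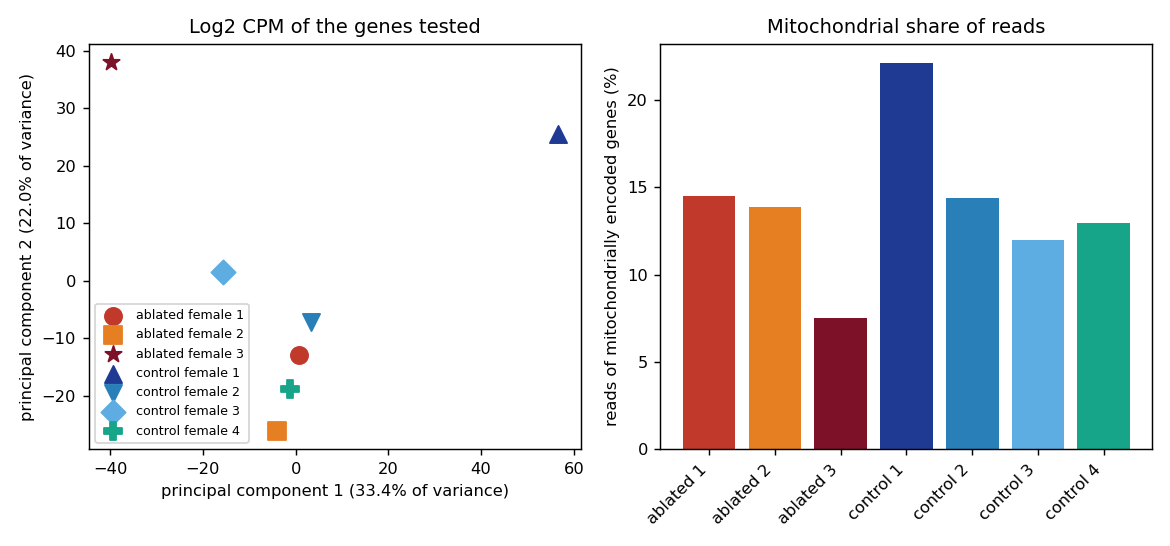
Left, the 7 libraries on the first 2 principal components of log2 CPM over the 16187 tested genes. Right, the share of reads from mitochondrially encoded genes as bars, in percent, ablated females left of control females. Ablated female 3 and control female 1 lie away from the other 5, with the lowest share (7.53%) and the highest (22.1%).

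The first question was which liver genes ablation changed. Of 16187 genes tested, 0 (0%) were called at an adjusted p under 0.05 by edgeR's quasi-likelihood test with Benjamini-Hochberg adjustment. At an unadjusted p under 0.05 there were 427 genes, 227 (1.4%) higher and 200 (1.24%) lower in ablated females. By chance a share of about 0.05 of genes would pass this threshold, both directions together. These counts over all genes are no excess over that share. All 3 ablated libraries lay above all 4 control libraries for 407 genes (2.51%) and below them for 373 (2.3%). With 3 against 4 mice chance alone would give shares at least as large. Lack of overlap in a gene picked for its low p is therefore no separate evidence. Without ablated female 3, 0 of 16926 genes were called, and 187 (1.1%) were higher and 243 (1.44%) lower at an unadjusted p under 0.05. limma voom called 0 genes (535 at an unadjusted p under 0.05) and DESeq2 called 4 (684 at an unadjusted p under 0.05), Slc41a2 and S100a9 higher and Hsd3b1 and Capn11 lower in ablated females. No gene named below was called by edgeR in this comparison, and each had an adjusted p of 1.00. The p-values measure the spread between these 7 mice.

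The precision of the fold changes depended on the level of the gene. The median standard error over all tested genes was 0.296 on the log2 scale, and the median absolute log2 fold change was 0.217. Among the 3984 genes with an average of at least 5 on the log2 CPM scale, the median standard error was 0.181, and 14 genes had an absolute log2 fold change over 1. Among the 2685 genes with an average under 0 on that scale the median standard error was 1.32. Log2 fold changes of several standard errors, such as those given next, did not pass the adjustment over all genes.

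Among the genes of lowest p that were higher in ablated females, several encode secreted or inducible liver proteins. Tgm2 (ENSMUSG00000037820, GRCm39 chromosome 2, 157958322 to 157988356) encodes transglutaminase 2, which crosslinks proteins. It stood at 61.3, 69.9 and 96.7 CPM in ablated females 1, 2 and 3, against 40.5, 49.6, 45.5 and 44.9 CPM in control females 1 to 4. The groups did not overlap, and the log2 fold change was 0.75 ± 0.18 (SE), or 0.54 ± 0.17 without ablated female 3. Hp (ENSMUSG00000031722, chromosome 8, 110301760 to 110305804) encodes haptoglobin, which binds free haemoglobin in plasma. It stood at 2778, 3410 and 6549 CPM in ablated females, against 1494, 2381, 1910 and 1934 CPM in control females. Again every ablated mouse was above every control, with a log2 fold change of 1.14 ± 0.29 that was 0.68 ± 0.22 without ablated female 3.

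Slc41a2 (ENSMUSG00000034591, chromosome 10, 83066712 to 83173746) encodes a magnesium transporter. Its levels were 5.46, 6.97 and 39.1 CPM in ablated females, against 2.63, 1.17, 1.47 and 0.765 CPM in control females. The groups did not overlap, but ablated female 3 was far above the other two, and the log2 fold change of 3.51 ± 0.73 was 2.04 ± 0.50 without it. S100a9, a calcium-binding protein abundant in neutrophils, stood at 1.22, 2.36 and 20.1 CPM in ablated females, against 0.887, 0.794, 0.400 and 0.300 CPM in control females. Its log2 fold change of 3.73 ± 0.89 was 1.59 ± 0.88 without ablated female 3. The remaining higher genes of lowest p were Klhdc7a (0.69 ± 0.18), the mitochondrial ribosomal protein gene Mrpl34 (0.79 ± 0.20), Tmie (0.71 ± 0.19), Gm7694 (1.15 ± 0.29), Mt2 and Lbp. For each of these the ablated and control libraries did not overlap. Without ablated female 3 the log2 fold changes were 0.62 ± 0.20 for Klhdc7a, 0.56 ± 0.21 for Mrpl34, 0.56 ± 0.21 for Tmie and 0.68 ± 0.27 for Gm7694.

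The genes of lowest p that were lower in ablated females included a transporter, steroid enzymes and a kinase. Abca8a, a membrane transporter of the ATP-binding cassette family, stood at 59.3, 43.5 and 44.2 CPM in ablated females, against 109, 84.0, 69.9 and 75.4 CPM in control females, with no overlap and a log2 fold change of -0.79 ± 0.19. Lats2, a kinase of the growth-restraining Hippo pathway, stood at 9.82, 9.45 and 7.99 CPM in ablated females, against 16.2, 14.7, 14.7 and 16.4 CPM in control females. Both groups were tight for Lats2, and its log2 fold change was -0.77 ± 0.20. Cep85l (-0.78 ± 0.19), Mamdc2 (-2.14 ± 0.58), the matrix gene Adamtsl2 (-0.97 ± 0.28) and Ppih, which encodes a spliceosomal cyclophilin (-1.34 ± 0.39), were also lower without overlap. Without ablated female 3 the log2 fold changes were -0.72 ± 0.22 for Abca8a, -0.68 ± 0.23 for Lats2 and -0.80 ± 0.22 for Cep85l. They were -1.94 ± 0.65 for Mamdc2, -0.74 ± 0.28 for Adamtsl2 and -1.30 ± 0.45 for Ppih.

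A pair of these genes rested on very few reads in ablated females. Hsd3b1, a 3-beta-hydroxysteroid dehydrogenase, had 0 reads in each ablated female, against 130, 66, 12 and 5 reads in control females 1 to 4. Pooled over each group, its level was at least 50.7-fold lower in ablated females, taking 3 counts over the group as the floor. Without control female 1 this bound was 27.0-fold, and the gene did not pass the low-count filter. Capn11, a calpain protease gene, had 0, 2 and 0 reads in ablated females 1, 2 and 3, against 354, 11, 63 and 279 reads in control females 1 to 4. The control reads of both genes were uneven, with the most in control female 1. Hsd3b1 belongs to a family of near-identical copies, so its reads are uncertain.

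**Figure D2:**
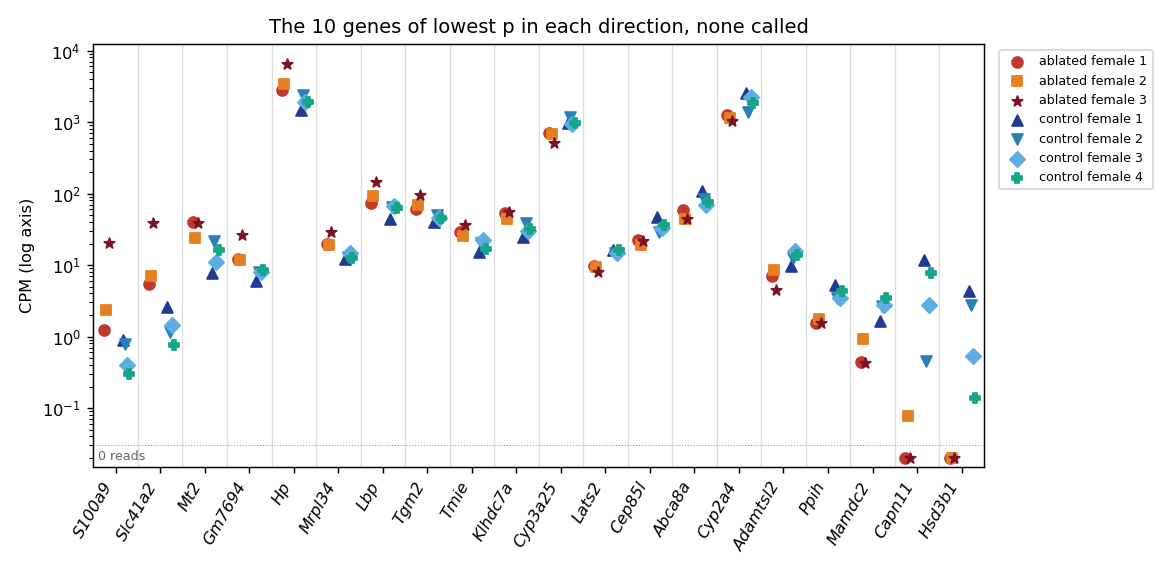
CPM (log axis) in each library of the 10 genes of lowest p that were higher in ablated females and the 10 that were lower, ablated females left of control females within each gene, with libraries at 0 reads drawn at the lower edge. None was called; for Tgm2 the ablated libraries lie at 61.3 to 96.7 CPM and the control libraries at 40.5 to 49.6 CPM.

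Acute phase proteins were the list with the most genes higher in ablated females at an unadjusted p under 0.05. Of its 28 genes 27 were tested, 25 had a positive fold change and the median log2 fold change was 0.67, against a median of 0.00 over all tested genes. At an unadjusted p under 0.05, 10 were higher (37.0%, against 1.4% of all tested genes) and 0 lower (against 1.24%). For 9 the ablated libraries lay above all control libraries (33.3%, against 2.51% of all tested genes). These shares over all genes, and 1.1% higher and 1.44% lower without ablated female 3, are the background for later list counts from the same fits. Without ablated female 3, 19 of 27 were positive, the median was 0.17, and 7 were higher and 0 lower at an unadjusted p under 0.05. Ablated female 3 had the highest of the 7 levels for 23 of the 27 genes and control female 1 the lowest for 21. Over all 16187 tested genes, ablated female 3 was highest for 3193 and lowest for 3324. Control female 1 was highest for 3741 and lowest for 4413. These are the background for later counts of this kind. With both left out the median was 0.00, and 7 genes were higher and 0 lower at an unadjusted p under 0.05. Of the 15979 genes of the main test also in that fit, 304 were higher and 318 lower. The summed level of the list was 22740, 22324 and 51640 CPM in ablated females 1, 2 and 3, against 19258, 20780, 30307 and 19938 CPM in control females 1 to 4. On this sum ablated females 1 and 2 lay below control female 3, so the groups overlapped.

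The higher genes in ablated females 1 and 2 were mainly the strongly inducible members. Saa2 (ENSMUSG00000057465, chromosome 7, 46401214 to 46403737), a serum amyloid A that joins high-density lipoprotein in inflammation, stood at 11, 31 and 191 CPM in ablated females. In control females it stood at 3.32, 3.76, 6.54 and 6.58 CPM. All ablated mice were above all controls, and the log2 fold change of 3.94 ± 1.05 was 2.05 ± 0.39 without ablated female 3 (unadjusted p = 0.00016, not called by edgeR). Saa1, its neighbour, stood at 18.7, 51.7 and 311 CPM in ablated females, against 4.401, 10.2, 8.98 and 15.4 CPM in control females, with a log2 fold change of 3.70 ± 1.07 (1.85 ± 0.49 without ablated female 3). Saa1 and Saa2 are nearly identical and the sources used here do not say how shared reads were counted, so the split between them is uncertain.

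Orm2 (ENSMUSG00000061540, chromosome 4, 63280686 to 63284115), an orosomucoid that carries drugs and lipids in plasma, stood at 27.6, 56.7 and 273 CPM in ablated females, against 5.12, 8.82, 16.4 and 20.7 CPM in control females. Its log2 fold change was 3.22 ± 0.95, or 1.72 ± 0.54 without ablated female 3, and the groups did not overlap in either case. Lcn2 (ENSMUSG00000026822, chromosome 2, 32274645 to 32278264), a lipocalin that binds bacterial siderophores, stood at 26.0, 57.8 and 184 CPM in ablated females, against 2.73, 19.97, 6.14 and 12.3 CPM in control females. Its log2 fold change was 3.12 ± 0.94, and 2.03 ± 0.79 without ablated female 3. In each of Saa1, Saa2, Orm2 and Lcn2 the order was ablated female 3, then 2, then 1, then the controls.

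Other members differed less. Lbp, which presents bacterial lipopolysaccharide to immune cells, stood at 73.8, 93.5 and 144 CPM in ablated females, against 43.5, 65.5, 67.7 and 63.8 CPM in control females (log2 fold change 0.79 ± 0.23, 0.48 ± 0.20 without ablated female 3). Saa3 moved little when ablated female 3 was left out, and stood at 4.61, 9.22 and 8.56 CPM in ablated females, against 3.19, 3.68, 3.60 and 4.21 CPM in control females (1.02 ± 0.32, 0.91 ± 0.37 without that mouse). Saa4 (1.202 ± 0.43), Itih4 (0.64 ± 0.25) and complement C3 (0.54 ± 0.25) had an unadjusted p under 0.05 with all 7 mice but not without ablated female 3. The iron hormone hepcidin, Hamp, had a log2 fold change of -0.46 ± 0.35. The 11 negative acute phase genes, plasma proteins that fall in inflammation, included 0 at an unadjusted p under 0.05, and their median log2 fold change was 0.16.

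**Figure D3:**
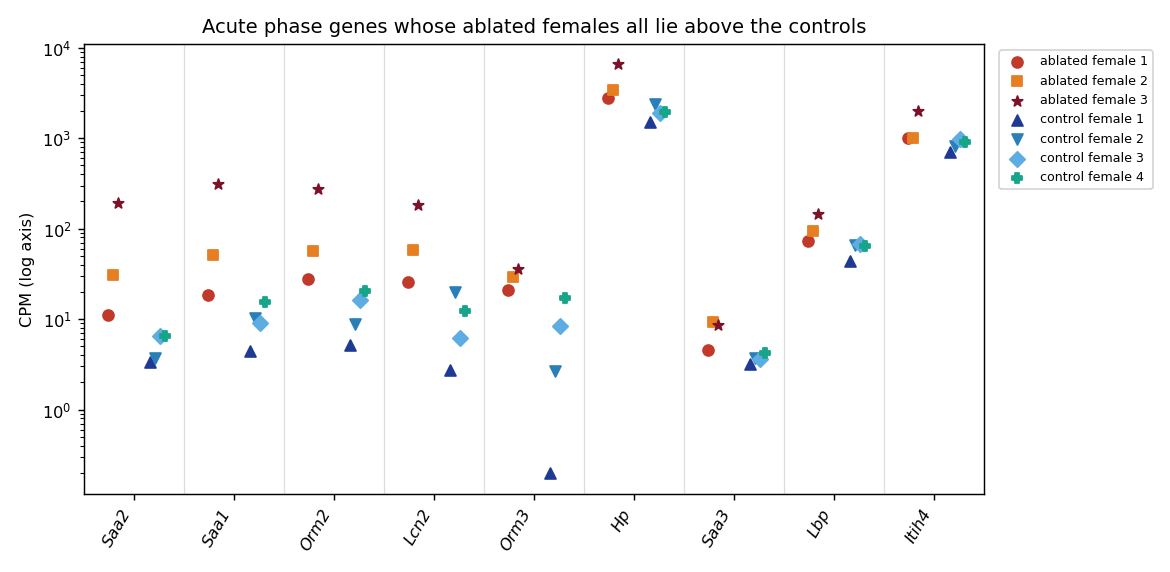
CPM (log axis) in each library of the 9 acute phase genes whose ablated libraries (left in each panel) lay above all control libraries (right). Ablated female 3 is the highest point for Saa1, Saa2, Orm2 and Lcn2, and ablated females 1 and 2 also lie above every control.

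The promoters of Saa2 and Orm2 are shown because these genes were higher in all 3 ablated mice. Both hold a loose form of the palindrome bound by C/EBP transcription factors, TTGNNCAA, which reads the same on both strands. The sequences are from RefSeq on GRCm38.p6, the 200 bases before the annotated start on the plus strand, with the match in capitals. This build differs from that of the counts, GRCm39, so the coordinates are not those given above.

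Saa2 promoter, chr7:46751633-46751832: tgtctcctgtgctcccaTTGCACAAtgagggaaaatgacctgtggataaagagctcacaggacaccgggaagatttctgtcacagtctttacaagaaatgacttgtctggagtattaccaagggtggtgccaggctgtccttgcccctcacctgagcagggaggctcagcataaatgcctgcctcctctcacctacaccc

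Orm2 promoter, chr4:63362249-63362448: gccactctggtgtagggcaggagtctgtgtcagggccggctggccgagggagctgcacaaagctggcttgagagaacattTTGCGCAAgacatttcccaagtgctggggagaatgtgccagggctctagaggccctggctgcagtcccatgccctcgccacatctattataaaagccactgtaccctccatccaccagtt

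Within the 250 bases before the start, TTGNNCAA was found in the promoters of 8 of the 21 tested acute phase genes with a RefSeq entry (38.1%), namely Fga, Fgb, Lcn2, Orm2, Orm3, Saa1, Saa2 and Saa4. Of all 27025 promoters 1758 (6.51%) held it. The match lay at -183 to -176 in Saa2 and at -120 to -113 in Orm2, counted from the start. The exact palindrome TTGCGCAA was found in 50 of all promoters (0.185%) and in Orm2 alone among the 21. These matches describe the letters in the window and not binding.

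Genes that answer interleukin-6 through STAT3 gave a mixed picture. Of 16 tested, 3 were higher and 0 lower at an unadjusted p under 0.05, with a median log2 fold change of 0.10. With ablated female 3 left out, 1 was higher and 1 lower, 8 of 16 were positive and the median was 0.01. Lrg1, a secreted leucine-rich glycoprotein, stood at 272, 197 and 707 CPM in ablated females, against 117, 205, 139 and 126 CPM in control females (1.42 ± 0.40, 0.68 ± 0.23 without ablated female 3). Ablated female 2 overlapped the controls for Lrg1. Fgl1, a fibrinogen-like hepatokine, stood at 626, 670 and 1383 CPM in ablated females, against 402, 573, 533 and 439 CPM in control females without overlap (0.88 ± 0.27, 0.41 ± 0.20 without ablated female 3). Cebpd, which encodes a C/EBP transcription factor induced in the acute phase, was higher at 4.69, 6.97 and 6.35 CPM in ablated females, against 2.59, 3.22, 3.47 and 4.78 CPM in control females (0.77 ± 0.34), where control female 4 overlapped ablated female 1. Among NF-kB and chemokine genes, 2 of 16 were higher and 0 lower at an unadjusted p under 0.05, Relb (0.97 ± 0.38) and Cxcl1 (1.19 ± 0.49). Cxcl1 was at 36.6 CPM in ablated female 3 and at most 17.5 CPM in any other library. Of 24 interferon response genes 1 was higher and 0 were lower (median 0.05), and 3 were higher without ablated female 3 (median 0.17). Of 25 complement and coagulation genes 23 were positive with a median of 0.27, which was 0.03 without ablated female 3, and C4b alone was at an unadjusted p under 0.05 (0.63 ± 0.23). Without that mouse 0 of the 25 were higher and 2 were lower, C8b (-0.59 ± 0.21) and C6 (-0.87 ± 0.39).

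Metallothioneins bind zinc and copper and are induced by metals, glucocorticoids and inflammation. Mt2 (ENSMUSG00000031762, chromosome 8, 94899292 to 94900196) stood at 39.5, 23.8 and 38.6 CPM in ablated females, against 7.75, 21.5, 11.1 and 16.2 CPM in control females. The groups did not overlap, although ablated female 2 and control female 2 were close, and the log2 fold change of 1.26 ± 0.31 was 1.16 ± 0.34 without ablated female 3. Mt1 stood at 2763, 1830 and 2407 CPM in ablated females, against 1074, 1783, 1314 and 2187 CPM in control females, with overlap (0.55 ± 0.26). The other 6 genes of the metallothionein and zinc transport list had an unadjusted p of at least 0.05, and the list's median was 0.11.

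The Mt2 promoter is shown for the metal response element core, TGCACNC or TGCGCNC, searched on both strands and in capitals below (RefSeq, GRCm38.p6, plus strand, 200 bases before the start).

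Mt2 promoter, chr8:94172418-94172617: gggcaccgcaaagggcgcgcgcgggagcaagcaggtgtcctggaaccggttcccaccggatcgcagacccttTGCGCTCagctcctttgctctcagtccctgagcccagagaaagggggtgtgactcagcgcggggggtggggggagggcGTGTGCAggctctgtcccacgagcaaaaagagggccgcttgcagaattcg

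TGCACNC was found in 11.8% and TGCGCNC in 14% of all promoters. In Mt2, TGCGCNC lay at -128 to -122 and TGCACNC at -50 to -44 on the reverse strand, with a further TGCACNC at -223 to -217 outside the printed stretch.

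Genes of the periportal zone of the liver lobule, where gluconeogenesis and the urea cycle are concentrated, depended strongly on ablated female 3. With all 7 mice, 3 of 22 were lower and 0 higher at an unadjusted p under 0.05 and the median log2 fold change was -0.06. The 3 were the steroid enzymes Cyp17a1 (-0.64 ± 0.20) and Hsd17b6 (-0.54 ± 0.22) and the phospholyase Etnppl (-0.68 ± 0.28). Without ablated female 3, 9 of 22 were lower and 0 higher, 3 were positive, and the median was -0.36. With control female 1 also left out 10 were lower, against 318 of 15979 genes of the main test. None was called in any of these fits.

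Pck1 (ENSMUSG00000027513, chromosome 2, 172994841 to 173001066), the rate-controlling enzyme of gluconeogenesis, stood at 991, 1269 and 3162 CPM in ablated females, against 2294, 3011, 3353 and 1813 CPM in control females. Ablated females 1 and 2 lay below every control and ablated female 3 lay among the highest. The log2 fold change was -0.53 ± 0.37 with all mice and -1.21 ± 0.27 without ablated female 3. Cdh1 (ENSMUSG00000000303, chromosome 8, 107329983 to 107396878), the periportal cadherin, stood at 13.4, 8.37 and 33.2 CPM in ablated females, against 27.8, 30.1, 31 and 21.7 CPM in control females (-0.59 ± 0.39, -1.34 ± 0.25 without ablated female 3). Sds, serine dehydratase, stood at 153, 203 and 499.5 CPM in ablated females, against 335, 317, 317 and 259 CPM in control females (-0.78 ± 0.20 without ablated female 3). For each of these the Ai9 mouse was the highest of all 7 or close to it, while the Ai39 ablated mice were the lowest.

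A pair of urea cycle enzymes were also highest in ablated female 3. Ass1, argininosuccinate synthase, stood at 1111, 1009 and 2830 CPM in ablated females, against 1480, 1260, 1949 and 1862 CPM in control females (0.01 ± 0.33, -0.63 ± 0.23 without ablated female 3). Cps1, which makes carbamoyl phosphate, stood at 469, 405 and 1235 CPM in ablated females, against 413, 599.5, 955 and 781 CPM in control females (0.03 ± 0.40, -0.65 ± 0.29 without ablated female 3). The groups overlapped for Cps1 even without that mouse, through control female 1. Among 22 gluconeogenesis and fasting genes 0 were at an unadjusted p under 0.05 with all 7 mice. Without ablated female 3, 4 were lower, namely Pck1, Sds, Lpin1 (-1.22 ± 0.48) and Tat. Of 36 urea cycle and amino acid catabolism genes 0 were at an unadjusted p under 0.05 and the median was 0.08. Leaving out ablated female 3 gave 3 lower and 0 higher, with a median of -0.04. The 24 pericentral genes, of the zone around the outgoing vein, had a median of 0.12, with Cyp27a1 lower (-0.59 ± 0.18) and Aldh1a1 higher (0.73 ± 0.32). The median was 0.20 without ablated female 3 and 0.00 without control female 1, the lowest library for 14 of the 24. Their sum was 5541 CPM in control female 1, against 11006, 13289 and 11258 CPM in control females 2 to 4.

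**Figure D4:**
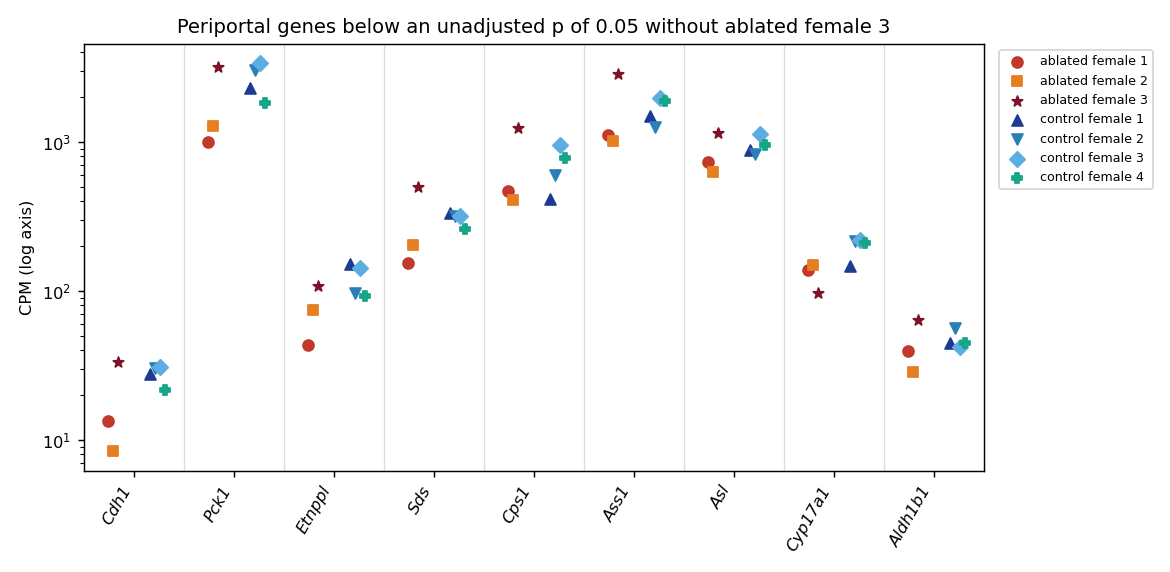
CPM (log axis) in each library of the 9 periportal genes that had an unadjusted p under 0.05 without ablated female 3, ablated females left of control females in each panel. Ablated females 1 and 2 lie low, and ablated female 3 lies at 3162 CPM for Pck1, within the range of the controls (1813 to 3353 CPM).

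In fatty acid synthesis 1 of 24 genes was lower and 0 higher at an unadjusted p under 0.05, with a median of -0.08, and 3 were lower without ablated female 3 (median -0.12). With all mice it was Acacb, the acetyl-CoA carboxylase whose product restrains fatty acid entry into mitochondria. Acacb stood at 95.9, 55.8 and 92.9 CPM in ablated females, against 194, 132, 127 and 110 CPM in control females, with no overlap (-0.79 ± 0.24, -0.89 ± 0.27 without ablated female 3). Scd1 (ENSMUSG00000037071, chromosome 19, 44382894 to 44396318), the main desaturase of liver fat synthesis, stood at 622, 480 and 3548 CPM in ablated females, against 3009, 1339, 3702 and 1865 CPM in control females. Ablated females 1 and 2 were below every control and ablated female 3 was near the top. Its log2 fold change was -0.68 ± 0.76, and without ablated female 3 it was -2.17 ± 0.38 (unadjusted p = 0.0001, not called by edgeR). Scd1, Cdh1, Sds, Ass1 and Cps1 were singled out after their values were seen. Fatty acid synthase, Fasn, stood at 1028, 412 and 535.5 CPM in ablated females, against 785, 579, 710 and 646 CPM in control females, and its log2 fold change was -0.05 ± 0.27.

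Fatty acid oxidation and ketogenesis genes had a median of 0.00 over 38 genes, with Cyp4a31 (-1.62 ± 0.58) and Angptl4, an inhibitor of lipoprotein lipase (-0.43 ± 0.17), lower and 0 higher at an unadjusted p under 0.05. When ablated female 3 was left out the counts turned to 2 higher, Bdh1 (0.52 ± 0.19) and Vnn1 (0.81 ± 0.28), and 0 lower, with 28 of 38 positive and a median of 0.13. Ablated female 3 was the lowest library for 17 of the 38. Of 25 cholesterol genes 1 was lower, Insig1 (-0.48 ± 0.19), and of 23 bile acid genes 1, Cyp27a1. Cyp7a1, the rate-limiting enzyme of bile acid synthesis, was at 132, 157 and 249 CPM in ablated females, against 83.2, 198, 190 and 129 CPM in control females (0.26 ± 0.30). The hepatokine Fgf21 was at 1.96, 2.98 and 1.70 CPM in ablated females, against 12.7, 6.56, 2.09 and 0.710 CPM in control females (-1.32 ± 0.78). For Fgf21 the control spread was wider than the gap between the groups. Fitm1, which helps form lipid droplets, was the single lipid droplet gene of 20 at an unadjusted p under 0.05, and it was higher (1.43 ± 0.50).

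Sex-biased genes also hinged on ablated female 3. Of 39 female-biased genes 3 were lower and 0 higher at an unadjusted p under 0.05, with a median log2 fold change of -0.18 that was -0.05 without ablated female 3. Without that mouse 4 were lower and 3 higher. Cyp2a4, a female-predominant steroid hydroxylase, stood at 1239, 1130 and 1036 CPM in ablated females, against 2517, 1395, 2260 and 1856 CPM in control females, with no overlap (-0.82 ± 0.23). Trim24, a nuclear receptor cofactor, stood at 119, 124 and 77.4 CPM in ablated females, against 194, 208, 148 and 126 CPM in control females without overlap (-0.67 ± 0.22, -0.48 ± 0.22 without ablated female 3). Cyp17a1 was the third. Of 37 male-biased genes 26 were positive, 1 was higher and 0 lower at an unadjusted p under 0.05, and the median was 0.32. In the other 6 mice the median was -0.30, with 0 higher and 4 lower. In that library 22 of the 37 male-biased genes were at the highest and 21 of the 39 female-biased genes at the lowest of the 7 levels.

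A few sex-biased genes showed how far ablated female 3 lay from its group. Mup20, a male-predominant urinary protein, stood at 41.5, 58.5 and 460 CPM in ablated females, against 73.8, 64.9, 73.2 and 34.2 CPM in control females. The female-predominant Cyp3a16 stood at 50.7, 52.9 and 0 CPM in ablated females, against 2.27, 64.4, 39.6 and 50.7 CPM in control females. Sult2a1, a female-predominant sulfotransferase, stood at 125, 220 and 0 CPM in ablated females, against 7.59, 52.7, 34.6 and 179 CPM in control females. Ablated female 3 had 0 reads of both, and control female 1 was the lowest of the others. Genes of the Mup, Cyp3a and Sult2a families share sequence, so their counts are uncertain.

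Control female 4, the control that carried Cre, was low for 3 picked genes linked to growth hormone, but not for the sum of the growth hormone and IGF1 list. Slco1a1, a male-predominant transporter, stood at 10.96, 6.59 and 101 CPM in ablated females, against 76.6, 77.5, 124 and 11.3 CPM in control females (-0.87 ± 1.25, -3.04 ± 1.10 without ablated female 3). Egfr, the epidermal growth factor receptor, stood at 92.3, 36.4 and 394 CPM in ablated females, against 216, 215, 192 and 59.98 CPM in control females (0.03 ± 0.89, -1.41 ± 0.65 without ablated female 3). Socs2, a feedback inhibitor of growth hormone signalling, stood at 109, 41.8 and 107 CPM in ablated females, against 135, 156, 152 and 30.0 CPM in control females. In all 3 genes control female 4 was the lowest control by a wide margin and lay closer to ablated females 1 and 2 than to the other controls. These genes, Mup20, Cyp3a16 and Sult2a1 were picked once their values had been seen. The 18 genes of the growth hormone and IGF1 list had a median of 0.03 with 0 at an unadjusted p under 0.05, and Igf1 was at -0.11 ± 0.19. The list's summed level was 8028, 7593 and 10126 CPM in ablated females, against 6686, 8064, 9538 and 7860 CPM in control females 1 to 4. On this sum control female 4 lay within the range of the other controls. A part of Cre in these levels was not tested.

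Of 27 drug-metabolising cytochromes P450, 4 were lower and 0 higher at an unadjusted p under 0.05. Leaving out ablated female 3, the lowest library for 12 of them, 4 were lower and 2 higher, Cyp2b13 (0.74 ± 0.26) and Cyp3a41a (1.48 ± 0.59). Besides Cyp2a4 and Cyp17a1 those lower with all mice were Cyp3a25 and Cyp3a59 (-0.86 ± 0.32, -0.53 ± 0.23 without ablated female 3). Cyp3a25 stood at 709, 684 and 507 CPM in ablated females, against 969, 1179, 930 and 960 CPM in control females, with no overlap (-0.67 ± 0.19, -0.53 ± 0.19 without ablated female 3). Of 28 conjugation enzymes 1 was lower, Sult5a1 (-0.72 ± 0.23). Of 23 NRF2 targets, which answer oxidative stress, G6pdx was lower (-0.89 ± 0.36) and Srxn1 higher (0.37 ± 0.16).

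Iron genes are linked to the acute phase through hepcidin, and genes of bone morphogenetic protein signalling, which controls hepcidin, are in the same list. Id1, a target of that signalling, stood at 16.3, 11.4 and 10.2 CPM in ablated females, against 62.8, 24.2, 20.3 and 14.7 CPM in control females (-1.27 ± 0.48). Control female 4 overlapped the ablated mice, and control female 1 was far above all others. Without control female 1 its log2 fold change was -0.64 ± 0.24. Smad7, an inhibitor of the pathway, stood at 10.3, 8.79 and 9.37 CPM in ablated females, against 21.3, 13.6, 16.99 and 12.1 CPM in control females without overlap (-0.75 ± 0.24). The iron importer Slc11a2 was higher (0.46 ± 0.18), and the other 21 of 24 iron and haem genes had an unadjusted p of at least 0.05.

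Markers of endothelial and stellate cells were lowest in ablated female 3. All 15 sinusoidal endothelial markers had a negative fold change, with a median of -0.45 that was -0.13 without ablated female 3. Their summed level was 379, 502 and 153 CPM in ablated females, against 512, 377, 423 and 495 CPM in control females, and ablated female 3 was the lowest library for 15 of 15. Oit3 was the single marker at an unadjusted p under 0.05, at 7.53, 8.68 and 2.17 CPM in ablated females, against 16.2, 8.69, 13.1 and 12.6 CPM in control females (-1.05 ± 0.40). The 16 stellate cell and fibroblast markers had a median of -0.57 (-0.17 without ablated female 3) and sums of 277, 364 and 88.5 CPM in ablated females, against 304, 324, 390 and 418 CPM in control females. In bulk tissue fewer cells of a type and less RNA per cell cannot be told apart. Of these markers Rgs5 was lower at an unadjusted p under 0.05 (-0.87 ± 0.32), and of 27 extracellular matrix genes Col4a2 (-0.91 ± 0.41).

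Neutrophil markers were near the limit of detection except in ablated female 3. Of 15 markers 5 were tested, all 5 were positive, and their sums were 6.42, 11.1 and 48.7 CPM in ablated females, against 9.98, 5.81, 4.49 and 10.2 CPM in control females. Without ablated female 3, 3 of the 5 were positive and 0 had an unadjusted p under 0.05. S100a8, the partner of S100a9, stood at 0.111, 0.581 and 18.7 CPM in ablated females, against 0.263, 0, 0 and 0.792 CPM in control females. Kupffer cell markers had a median of 0.09 over 17 genes (0.37 without ablated female 3), and hepatocyte markers 0.18 over 15. Erythroid markers were positive for 7 of 8 with a median of 0.64, and 0 had an unadjusted p under 0.05. Control female 1 was the lowest library for 6 of the 8. The part of these markers in the acute phase difference was not tested.

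Ribosomal protein and mitochondrially encoded RNA also differed in the libraries that stood apart. All 41 cytosolic ribosomal protein genes were positive (median 0.30, 0.09 without ablated female 3), with ablated female 3 the highest of the 7 for 40 and control female 1 the lowest for 34. Of the 13 mitochondrially encoded genes 1 was positive (median -0.36), with ablated female 3 the lowest for 13 and control female 1 the highest for 12. With the 13 left out of the table the count at an unadjusted p under 0.05 was again 427. Their part in the gene results was not tested further.

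**Figure D5:**
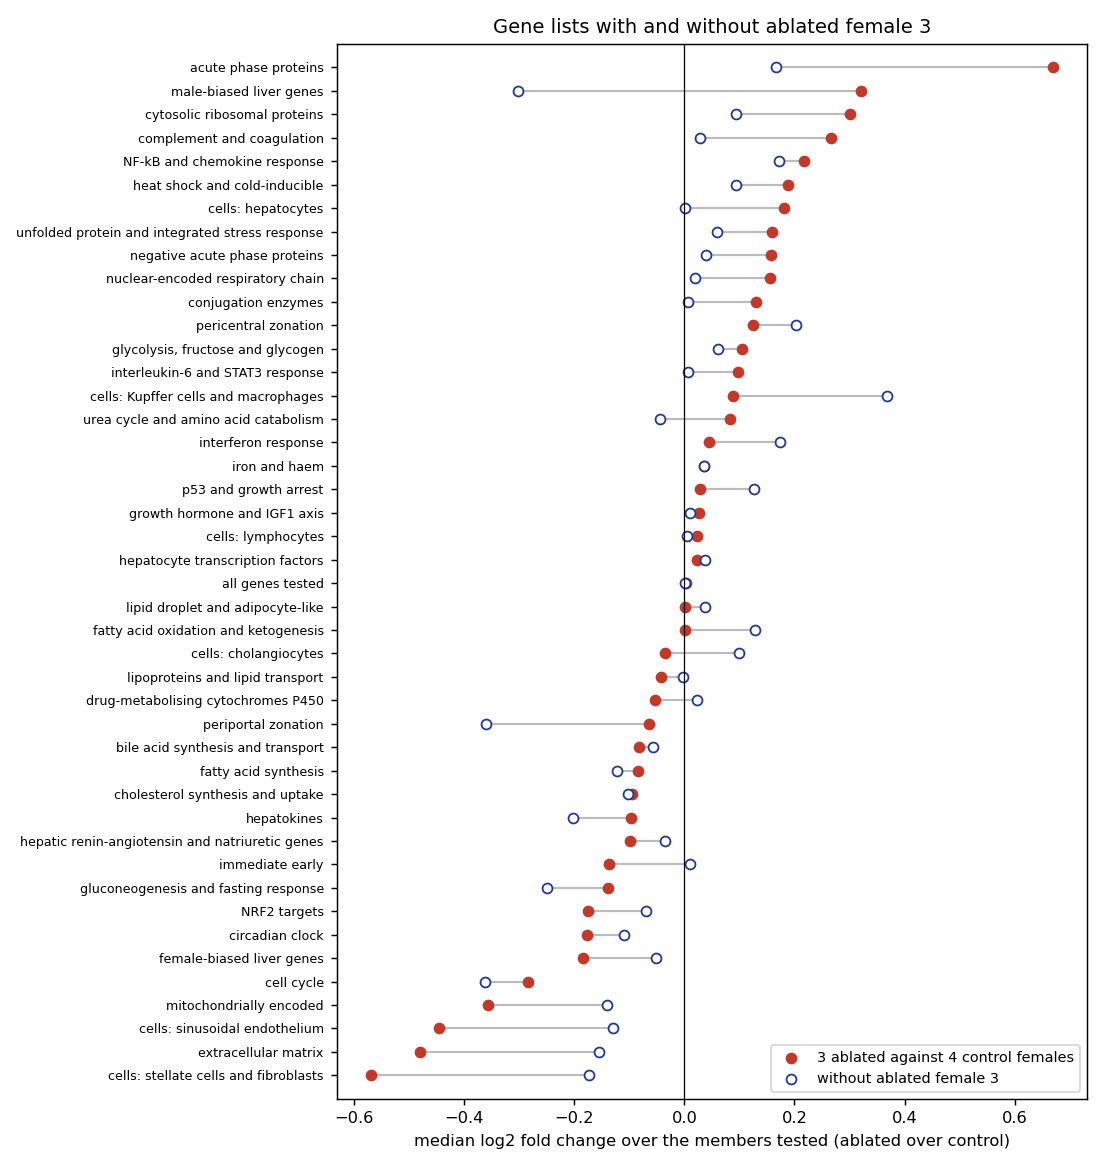
Median log2 fold change, ablated over control females, of each gene list with at least 10 tested genes, with all 7 mice (filled) and without ablated female 3 (open). The acute phase list lies at 0.67 filled and 0.17 open, sinusoidal endothelium at -0.45 and -0.13, and male-biased genes at 0.32 and -0.30.

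The remaining lists had at most 2 genes at an unadjusted p under 0.05. Cell cycle genes had a median of -0.28 over 28, with Aurkb higher at low counts (3.28 ± 1.47) and, without ablated female 3, 0 higher and 2 lower. The 28 stress response genes of unfolded proteins and translation (median 0.16) and the 17 immediate early genes (median -0.14) had 0. Single genes were Hsp90aa1 (0.39 ± 0.17) of 15 heat shock and cold-inducible genes, Plk2 (-0.86 ± 0.31) of 18 growth arrest genes, Ndufa2 (0.36 ± 0.16) of 41 respiratory chain genes and Ppp1r3g (-1.48 ± 0.57) of 24 glycolysis and glycogen genes. Others were Pltp (-0.62 ± 0.24) of 27 lipoprotein genes and Ighm (-0.62 ± 0.25) of 15 lymphocyte markers. Among 21 clock genes Per1 was lower (-0.43 ± 0.18) and Bhlhe41 higher (0.90 ± 0.41), and among 23 hepatocyte transcription factors Nr5a2 was higher (0.37 ± 0.15) and Nr1i2 lower (-0.35 ± 0.16). Markers of cholangiocytes, adipocytes and pancreas or gut had 0, at summed levels up to 274, 2188 and 317 CPM.

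The receptor named in the study was measured in liver, where the ablation was not aimed. Agtr1a stood at 61.5, 57.1 and 55.5 CPM in ablated females, against 56.0, 70.2, 61.9 and 60.7 CPM in control females, with overlap and a log2 fold change of -0.10 ± 0.15. This level in liver does not check the ablation, which was in the brain. Angiotensinogen, Agt, the liver precursor of angiotensin, stood at 864, 1060 and 813 CPM in ablated females, against 601, 869, 699 and 769 CPM in control females (0.31 ± 0.19). Enpep, which cleaves angiotensin II, was the single gene of 11 renin-angiotensin and natriuretic genes at an unadjusted p under 0.05, at 74.4, 70.3 and 89.8 CPM in ablated females, against 58.1, 63.3, 67.8 and 56.5 CPM in control females without overlap (0.35 ± 0.15). Agrp had 4, 21 and 0 reads in ablated females, against 0, 0, 0 and 8 reads in control females, too few for a test.

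The next question was whether ablation acted differently in females at 30 °C and at 22 °C, where 3 ablated and 3 control females were compared. A test of the difference of the effects called 0 of 17709 genes (0%) by edgeR, and 819 (4.62%) had an unadjusted p under 0.05. DESeq2 called 6. Among protein-coding genes whose log2 CPM averaged at least 0, the lowest p belonged to Lrg1 and Acacb. Lrg1 had a log2 fold change of 1.42 at 30 °C and -1.13 at 22 °C, a difference of 2.57 ± 0.53. Without ablated female 3 its 30 °C value was 0.68 ± 0.23. Acacb had -0.79 at 30 °C (-0.89 ± 0.27 without ablated female 3) and 0.69 at 22 °C, a difference of -1.46 ± 0.32. At 22 °C Acacb stood at 186, 213 and 164 CPM in ablated females, against 119, 112 and 122 CPM in control females, and Lrg1 at 106, 73.3 and 62.8 CPM in ablated females, against 195, 200 and 138 CPM in control females. The groups thus did not overlap at 22 °C for either gene, in the direction opposite to 30 °C, where the groups overlapped for Lrg1.

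Next among these protein-coding genes came Gsta2, a glutathione transferase, the glucosylceramidase Gba2 and the centromere histone Cenpa. Gsta2 was at 0.14 ± 0.29 at 30 °C and 2.80 ± 0.42 at 22 °C (difference -2.65 ± 0.57). Gba2 was at -0.07 at 30 °C and -1.07 at 22 °C (difference 1.02 ± 0.24), and Cenpa at -0.68 and 0.55 (difference -1.21 ± 0.30). Without ablated female 3 the 30 °C values were 0.24 ± 0.33 for Gsta2, -0.15 ± 0.18 for Gba2 and -0.53 ± 0.24 for Cenpa. The adjusted p of each of the 5 differences was 1.00 by edgeR, while DESeq2 called those of Lrg1, Acacb and Gsta2. Scd1, which was low in ablated females 1 and 2 at 30 °C, had a log2 fold change of 1.15 ± 0.37 at 22 °C.

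In females at 22 °C 16 genes of 16097 were called, and their 30 °C values are given as a description. Being picked by their 22 °C values, they would tend to be smaller in any other comparison. The share of equal signs over all genes was not counted. At 30 °C 14 of the 16 had the same sign as at 22 °C, or 16 without ablated female 3, and all 16 were smaller in size. The other two were C8a, with 0.63 ± 0.59 at 30 °C and -1.67 ± 0.26 at 22 °C, and Egfr, with 0.03 ± 0.89 at 30 °C and -2.42 ± 0.29 at 22 °C. Pck1 had -0.53 ± 0.37 at 30 °C, or -1.21 ± 0.27 without ablated female 3, and -1.89 ± 0.23 at 22 °C. Fitm1 had 1.43 ± 0.50 at 30 °C and 1.92 ± 0.30 at 22 °C. Adam11 had 0.88 ± 0.28 at 30 °C and 1.92 ± 0.21 at 22 °C, and Orm3 had 1.99 ± 1.13 at 30 °C and 2.69 ± 0.28 at 22 °C. At 22 °C the acute phase list had a median of -0.27, with 5 genes higher and 2 lower at an unadjusted p under 0.05, and the periportal list -0.31 with 8 lower. Of the 15442 genes also tested at 30 °C, 562 were higher and 489 lower at 22 °C by the same threshold. Saa2 had 3.94 ± 1.05 at 30 °C, or 2.05 ± 0.39 without ablated female 3, and 2.15 ± 0.46 at 22 °C. Differences between temperatures in these lists were not tested.

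The last question was whether females differed from males at 30 °C, where 3 ablated males were set against 2 control males. The difference of the effects called 0 of 18500 genes (0%) by edgeR, with 892 (4.82%) at an unadjusted p under 0.05, and 53 by DESeq2. Among protein-coding genes whose log2 CPM averaged at least 0 in the females at 30 °C, 5 had the lowest p. These 5, Fxyd7, Coro2a, Arl4c, Casz1 and Osbp2, had 0 CPM in both control males. Their fold changes in females were -0.99, 0.86, -0.66, 0.30 and 0.22, each with an unadjusted p of at least 0.05. For Fxyd7 the female levels were 2.84, 0.969 and 0.533 CPM in ablated mice, against 4.30, 1.92, 2.22 and 3.09 CPM in control mice. In males it was at 2.48, 5.07 and 0.920 CPM in ablated mice and 0 in both controls. Control male 1 was a sparse library, and without it or control male 2 the control group was a single mouse, assumed to vary like the others. The number called was 1 without control male 1 and 706 without control male 2. In males at 30 °C alone 0 of 16331 genes were called (425 at an unadjusted p under 0.05), and the acute phase list had a median of 0.12 with 2 genes higher. Of the 15346 genes also tested in females at 30 °C, 270 were higher and 106 lower in ablated males at that threshold.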

How the data were processed

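Poly(A) RNA of snap-frozen liver was sequenced, per the labels' protocols. The submitters' processing notes name CASAVA, HISAT2 and DESeq2 and the build GRCm39, while the sources used here do not name versions, the gene annotation, the counting program or strandedness. The deposited tables hold raw read counts per gene, which were used for every test. Beside them the authors deposited FPKM values and a normalised signal, the counts divided by a size factor per library, and neither was used for tests. The deposited counts of all tables were joined by gene to 27790 genes, and 53508 values of genes listed in some tables only were set to 0.

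Counts of the 7 libraries were tested with edgeR 4.0.16 (R 4.3.3; TMM, filterByExpr, quasi-likelihood F test with robust shrinkage, residual degrees of freedom 5), with Benjamini-Hochberg adjustment and a threshold of 0.05. Standard errors were the absolute log2 change divided by the root of F. limma 3.58.1 (voom) and DESeq2 1.42.0 were alternatives. The differences between temperatures and sexes were contrasts in fits that added 6 females at 22 °C or 5 males at 30 °C. The scripts were checked on simulated counts.

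Named genes are the 10 protein-coding genes of lowest p in each direction whose log2 CPM averaged 0 or more, the 5 of lowest p for each difference, up to 4 members of each list with at least 3 members at an unadjusted p under 0.05, and a set of always-named genes. The gene lists, the members and these rules were chosen with earlier results of these data known. Promoters came from RefSeq, and the promoters of Fgl1, Hp and Lbp were not used here.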

Additional observations from a re-analysis of the deposited data

Results flagged for a closer look

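In the 4 control females, 56 named genes and 48 list sums were examined for a single control far from the other 3, by Dixon's ratio above 0.829 of the range, and 8 were found. Chance gives about 1 in 20 such groups. Control female 1 was apart in 4 of them, with 43.5 CPM of Lbp, 147 CPM of Cyp17a1, a sum of 3460 CPM of conjugation enzymes and a sum of 546 CPM of immediate early genes. The first 3 were low and the last high. Control female 3 was apart in 3 sums, all high, with 30300 CPM of acute phase proteins, 2480 CPM of extracellular matrix genes and 20400 CPM of iron and haem genes. Control female 2 was apart with 1180 CPM of Cyp3a25, the highest of the controls. Their part in the comparisons was not tested beyond leaving out each mouse.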

How the results depend on the processing

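Leaving out each of the 7 mice in turn called 0 genes, and the count at an unadjusted p under 0.05 was 358 to 604, against 427. That count was 744 with no filter on low counts, 684 with DESeq2 (4 called), 679 with all 24 libraries in 1 fit, 857 with 23 libraries, 655 with 11 libraries at 30 °C and 159 with Cre as a covariate. Without ablated female 3 and control female 1, a choice made after seeing the data, 1 gene was called, Cyp3a41a, whose copies share reads. The replicate number as a block gave 1074 genes and 0 called. Deviations of same-numbered mice correlated at 0.155, -0.0294 and 0.242, and 2 of the 3 correlated best with their own number. The highest with a control of another number were 0.0156, 0.154 and 0.012. Whether the numbers pair the mice cannot be told from these values, and the main fit used no pairing.

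For the difference between temperatures in females, 128 genes were called with no filter and 6 with DESeq2. For the difference between sexes at 30 °C, 71 were called with no filter, 53 with DESeq2 and 0 to 706 with each library left out, 706 being without control male 2 and 1 each without control male 1 (Plin4) and ablated male 3 (C4a).

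Among single genes, directions turned only for named genes with an unadjusted p of at least 0.05. With limma voom Scd2 was at -0.03. In Ai39 mice alone Slc22a7 was at -0.05, Casz1 at -0.09 and Fasn at 0.11. With Cre as a covariate, which sets the ablated mice against control female 4 alone, the single Cre-carrying control, Fgf21 was at 1.63, Il1rn at -0.16, Igf1 at 0.14, Gsta2 at -0.21, Scd2 at -0.26 and Fasn at 0.03. Without ablated female 3 and control female 1, Slc22a7 was at -0.41, Arl4c at 0.03, Cyp7a1 at -0.25, Osbp2 at -0.26 and Fasn at 0.16. With each mouse left out in turn, the range was -0.09 to 0.29 for Gsta2, -0.15 to 0.00 for Gba2, -0.37 to 0.34 for Scd2, -0.52 to 0.21 for Fasn, -0.16 to 0.94 for Slc22a7, -0.05 to 0.44 for Cyp7a1, -0.14 to 0.65 for Osbp2, -0.03 to 0.52 for Il1rn. The cause was not tested. Depth limits genes of few reads, with a median standard error of 1.32 under an average log2 CPM of 0.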
